A study of Homo sapiens with 16 samples.

Results

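The cancer-testis antigen families were taken here as every gene symbol in the count files of the form MAGEA, MAGEB, MAGEC, GAGE, CTAG, SSX or XAGE followed by a number, and PRAME. The rule matched 69 of 28278 symbols. They comprise 22 GAGE, 13 MAGEA, 11 SSX, 10 MAGEB, 5 XAGE, 3 CTAG and 3 MAGEC symbols, PRAME, and SSX2IP. SSX2IP matches by its name alone. It encodes a centrosomal protein that interacts with SSX2, lies on chromosome 1 and is not a cancer-testis antigen, so 68 symbols remain. Of the SSX symbols, 3 (SSX6P, SSX8P and SSX9P) are pseudogenes. Of all 69, 25 had at least 1 count in any library and 44 were at 0 in all 16 libraries.

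RNA-seq counts came from 6 groups of established human melanoma cell lines. A375 cells gave 3 TFE3KO libraries, in which TFE3 was edited with CRISPR-Cas9, and 3 wild-type libraries. SKMEL28 cells gave 3 libraries each of double-knockout (DKO) clone 13 and clone 3, in which TFE3 was edited in a line that already carried the MITFKO edit, 3 MITFKO libraries of that parental line (called D2) and 1 wild-type library, numbered replicate 4. Every DKO library therefore carries the MITF edit too, clone 13 and clone 3 are 1 clone each, and the number of clones behind the A375 TFE3KO line is not given in the sources used here. Replicates were separate flasks of a line, so p-values measure the spread between flasks. The media differed: RPMI for SKMEL28 and DMEM for A375, both with 10% serum and renewed 24 hours before harvest.

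Cancer-testis genes are active in the male germ line and silent in most other adult tissues, and many lie in copied clusters on the X chromosome. In tumours, melanoma among them, a subset is switched on, a change linked to loss of DNA methylation at their promoters. MAGE-A, MAGE-B and MAGE-C proteins (the type I MAGEs) bind RING ubiquitin ligases such as TRIM28 and are targets of tumour-specific T cells, as are GAGE, CTAG1 (NY-ESO-1), SSX, XAGE and PRAME proteins. MITF is the master transcription factor of the melanocyte lineage and TFE3 is its close relative. Both bind E-box sequences.

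Library totals ran from 17320855 to 31269126 counts. TFE3 read 11.7, 12.2 and 10.9 CPM (counts scaled to library size with TMM factors) in A375 TFE3KO, against 119.5, 113.8 and 125.2 in A375 wild type. In SKMEL28, TFE3 read 43.6 to 49.3 CPM in DKO clone 13 and 8.35 to 11.8 in clone 3, against 72.35 to 79.65 in MITFKO and 45.0 in wild type, so clone 13 keeps more TFE3 RNA than clone 3. MITF RNA was 480.8 to 542.4 CPM in MITFKO, against 538.6 in wild type, and a small edit need not lower RNA, so this value does not check the label. Of 8 melanocytic markers, none was at 0 in any SKMEL28 group, while TYR was at 0 in A375 TFE3KO, and TYR and DCT were at 0 in A375 wild type. DKO clone 13 replicate 2 stood apart from its replicates: its chi-square per degree of freedom was 21.9 and 23.3 against them, where the other 13 pairs of replicates gave 3.20 to 7.14.

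The sequences shown next are those on which the reading of the counts turns. MAGEA3 and MAGEA6 are a pair of near-identical genes whose reads can be confused: their coding sequences of 942 bases differ at 18 bases, an identity of 98.1%. The stretch below, from GENCODE version 29 transcripts (GRCh38), holds 4 of those differences in capitals.
MAGEA3 coding bases 573 to 632: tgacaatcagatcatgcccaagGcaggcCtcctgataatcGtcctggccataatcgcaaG
MAGEA6 coding bases 573 to 632: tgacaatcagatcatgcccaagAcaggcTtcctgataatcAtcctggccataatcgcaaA

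The promoters shown are from RefSeq (GRCh38.p14). They belong to the cancer-testis members described most closely below: those that were on in some group and have an entry, and MAGEB2, which had counts in A375 TFE3KO and none in A375 wild type. SSX2IP, which is not a cancer-testis antigen, is left out. Each covers the 250 bases upstream of the start, 5′ to 3′ on the gene's own strand. Capitals mark CCGGAA or CCGGAT on either strand (TTCCGG or ATCCGG when reversed), letters that many ETS-family factors bind. MAGEA1 and MAGEA10 had no entry.
MAGEA4 promoter, chrX:151912224-151912473, plus strand: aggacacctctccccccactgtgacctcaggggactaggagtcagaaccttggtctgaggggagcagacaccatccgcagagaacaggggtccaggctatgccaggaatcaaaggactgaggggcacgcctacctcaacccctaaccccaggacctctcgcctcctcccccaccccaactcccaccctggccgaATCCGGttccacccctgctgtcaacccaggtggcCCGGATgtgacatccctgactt
MAGEA3 promoter, chrX:152698544-152698793, plus strand: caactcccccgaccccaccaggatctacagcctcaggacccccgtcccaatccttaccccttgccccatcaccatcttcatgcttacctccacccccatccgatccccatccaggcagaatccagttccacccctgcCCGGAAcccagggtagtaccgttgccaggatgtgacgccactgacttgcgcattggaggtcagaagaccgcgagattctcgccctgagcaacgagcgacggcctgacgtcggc
MAGEA12 promoter, chrX:152733507-152733756, plus strand: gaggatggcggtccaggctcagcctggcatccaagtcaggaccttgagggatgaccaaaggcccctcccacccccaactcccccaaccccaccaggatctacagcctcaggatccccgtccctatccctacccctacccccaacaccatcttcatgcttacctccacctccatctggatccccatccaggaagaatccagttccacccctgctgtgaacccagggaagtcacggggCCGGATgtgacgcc
MAGEA11 promoter, chrX:149711810-149712059, plus strand: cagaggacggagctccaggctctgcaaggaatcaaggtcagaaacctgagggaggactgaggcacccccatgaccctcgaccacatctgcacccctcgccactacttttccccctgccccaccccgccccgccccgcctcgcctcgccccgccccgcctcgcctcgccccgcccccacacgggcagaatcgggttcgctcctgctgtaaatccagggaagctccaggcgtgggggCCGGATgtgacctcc
MAGEC2 promoter, chrX:142205291-142205540, minus strand: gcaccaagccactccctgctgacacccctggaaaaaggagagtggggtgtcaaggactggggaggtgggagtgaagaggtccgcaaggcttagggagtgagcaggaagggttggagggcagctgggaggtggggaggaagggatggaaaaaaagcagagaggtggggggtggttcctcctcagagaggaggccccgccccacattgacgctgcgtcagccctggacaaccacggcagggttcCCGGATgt
MAGEB2 promoter, chrX:30215313-30215562, plus strand: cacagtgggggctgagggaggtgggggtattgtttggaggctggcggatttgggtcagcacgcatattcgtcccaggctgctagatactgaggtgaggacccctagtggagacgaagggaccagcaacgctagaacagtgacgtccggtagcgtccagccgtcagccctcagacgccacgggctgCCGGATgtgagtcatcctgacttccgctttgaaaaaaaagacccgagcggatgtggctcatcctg
GAGE1 promoter, chrX:49598763-49599012, plus strand: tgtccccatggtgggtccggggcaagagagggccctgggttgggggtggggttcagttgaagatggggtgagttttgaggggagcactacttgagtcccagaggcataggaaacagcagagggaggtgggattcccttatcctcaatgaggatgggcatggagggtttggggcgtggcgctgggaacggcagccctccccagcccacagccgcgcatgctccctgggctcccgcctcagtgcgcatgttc

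The MAGEA6 promoter, on the minus strand at chrX:152769690-152769939, matched that of MAGEA3 at every base (0 differences), so these upstream letters cannot tell the genes apart. CCGGAA or CCGGAT was found in 17 of 48 member promoters (35.4%), against 18.7% of 35116 RefSeq promoters of the same length. It was found in 16 of 22 MAGE promoters and in 0 of 12 GAGE promoters, and in 6 of the 8 promoters of members that were on in some group. GAGE1 and SSX2IP had none. The E-box CACGTG, a core that MITF and TFE3 can bind, was in 1 of 48 member promoters (XAGE3), against 6.34% of all, and the related CATGTG was in 2 of 48 (MAGEA9 and MAGEA9B), against 9.42%. None of the promoters printed above holds either E-box. CG pairs numbered a median of 8 per promoter over the members and 11 over all promoters. The motif CCGGAA or CCGGAT was chosen after the promoters were read, so its excess over all promoters is not a test. Copies with the same promoter, such as MAGEA3 and MAGEA6, are each counted in these shares. These motif matches are descriptions of letters, not of binding.

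A member was called on in a group when it read at least 1 CPM in every library, off when its counts summed over the group were 3 or fewer, and low otherwise. By this rule 10 members were on in at least 1 group and 48 were off in all 6. The other 11 were low somewhere and on nowhere. In bulk samples, fewer expressing cells and less RNA per cell cannot be told apart. A375 TFE3KO had 8 members on, A375 wild type had 10, and every SKMEL28 group had the same 6. Those 6 were MAGEA3, MAGEA4, MAGEA6, MAGEA10, MAGEA12 and SSX2IP. A375 wild type added GAGE1, MAGEA1, MAGEA11 and MAGEC2, of which GAGE1, MAGEA11 and MAGEC2 were off in every SKMEL28 group. MAGEA4 was the most abundant member in every group. It made up 60.1% ± 0.672 of all cancer-testis counts in A375 TFE3KO and 55.4% ± 0.651 in A375 wild type (SD, n = 3 each). Its share was 67.4% ± 1.905 in DKO clone 13, 67.8% ± 0.654 in clone 3 and 66.8% ± 0.687 in MITFKO (SD, n = 3 each), and 67.95% in the SKMEL28 wild-type library.

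**Figure D1:**
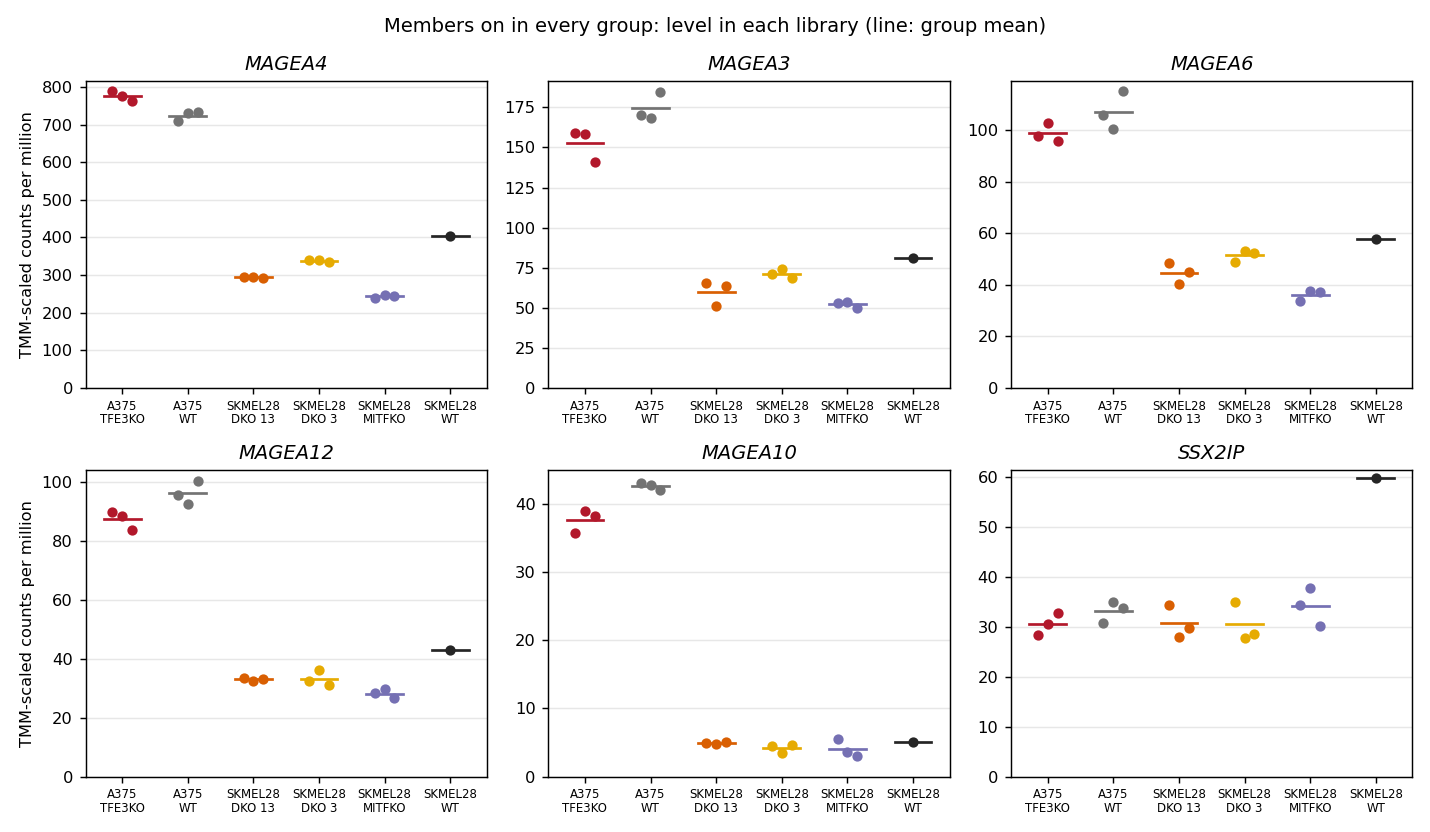
TMM-scaled CPM (vertical axis, from 0) of the 6 members on in every group, in each of the 16 libraries (points) with the group mean (line). MAGEA4, MAGEA3, MAGEA6, MAGEA12 and MAGEA10 sit higher in both A375 groups than in any SKMEL28 library, and SSX2IP is highest in the SKMEL28 wild-type library at 59.9 CPM.

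Compared per kilobase of transcript within A375 wild type, MAGEA4 stood at 408 CPM per kilobase, MAGEA3 at 99.0, MAGEA6 at 60.7, MAGEC2 at 60.5, MAGEA12 at 54.6, MAGEA11 at 16.7, MAGEA10 at 15.6, MAGEA1 at 2.50 and GAGE1 at 1.76. The order in SKMEL28 wild type began likewise with MAGEA4 at 227 CPM per kilobase, then MAGEA3 at 46.0, MAGEA6 at 32.9, MAGEA12 at 24.3 and MAGEA10 at 1.855. MAGEA6, MAGEC2 and MAGEA12 are neighbours in the A375 order whose spacing was not tested.

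The unedited lines were compared in 1 model of all 16 libraries by the quasi-likelihood test of edgeR. Here and throughout, p-values were adjusted over all genes by the Benjamini-Hochberg method, and a call means an adjusted p under 0.05. Line and medium cannot be told apart, and SKMEL28 has 1 wild-type library, whose spread was assumed to be that of the other groups. Of 15 members tested, 9 were higher and 1 was lower in A375, a share of 66.7% against 67.6% of 16248 genes, so the share of members called was that of genes at large. Higher calls made up 34.1% of all genes. GAGE1, MAGEA11 and MAGEC2 passed the filter on low counts only by the A375 libraries, and so had to be higher there, though they count in the 66.7%. MAGEC2, a partner of TRIM28, had 2633, 2641 and 2534 counts in A375 wild type and 0 in SKMEL28 wild type, at least 978-fold higher against a floor of 3 counts. MAGEA11, a coregulator of the androgen receptor, had 655, 706 and 656 counts in A375 wild type and 0 in SKMEL28 wild type, at least 253-fold higher. GAGE1 had 119, 132 and 107 counts in A375 wild type and 0 in SKMEL28 wild type, at least 44.9-fold higher. In all 10 SKMEL28 libraries together these 3 genes had 1 count, a read of MAGEA11 in MITFKO.

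The MAGE-A genes that both lines expressed differed by smaller factors. MAGEA10 was 42.7 ± 0.525 CPM in A375 wild type (SD, n = 3) and 5.09 in SKMEL28 wild type, a log2 difference of 3.07 ± 0.22 (SE) with an edgeR adjusted p of 9e-14. MAGEA1 was 4.48, 3.525 and 4.81 CPM in A375 wild type and 0.615 in SKMEL28 wild type (2.78 ± 0.86 on the log2 scale, edgeR adjusted p = 0.00608). MAGEA12, MAGEA3, MAGEA6 and MAGEA4 were higher in A375 by 1.17, 1.11, 0.89 and 0.85 on the log2 scale. SSX2IP ran the other way, at 33.2 ± 2.17 CPM in A375 wild type (SD, n = 3) and 59.9 in SKMEL28 wild type. Its log2 difference was -0.85 ± 0.13 (edgeR adjusted p = 1.18e-06).

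In MITFKO SKMEL28 cells the 4 most abundant MAGE-A genes fell by 0.60 to 0.72 on the log2 scale, and MAGEA1 was at 0. Of 10 members tested, 6 fell and 0 rose in MITFKO relative to wild type (60%), against 48.6% of 14605 genes called and 23.4% of genes that fell. MAGEA4 read 239.1, 247.7 and 244.9 CPM in MITFKO, against 402.9 in wild type, and changed by -0.72 ± 0.069 on the log2 scale (SE; edgeR adjusted p = 1.05e-08). All 3 MITFKO libraries lay well below the wild-type value. MAGEA3 read 53.1, 53.5 and 50 CPM in MITFKO, against 81.0 in wild type (log2 -0.63 ± 0.11, edgeR adjusted p = 5.61e-05). MAGEA6 read 33.8, 37.5 and 37.0 CPM in MITFKO, against 57.9 in wild type (log2 -0.68 ± 0.11, edgeR adjusted p = 3.22e-05). MAGEA12 read 28.4, 29.7 and 26.6 CPM in MITFKO, against 42.8 in wild type (log2 -0.60 ± 0.12, edgeR adjusted p = 0.000239). For each of these 4 genes the MITFKO libraries lay together below the only wild-type value, which has no replicate of its own. How many of all genes lay apart in this way was not counted. Of the 8 melanocytic markers, all tested, 1 rose and 5 fell. Their summed level was 5706 to 5900 CPM in MITFKO and 14440 in wild type. Most of it was PMEL, at a mean of 3370 CPM in MITFKO and 10440 in wild type. The part of these markers in the result was not tested.

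SSX2IP fell as well, with 34.4, 37.9 and 30.1 CPM in MITFKO against 59.9 in wild type (log2 -0.81 ± 0.14, edgeR adjusted p = 4.99e-05). MAGEA1, which binds TRIM28 and the Notch-pathway protein SKIP, had 0 counts in all 3 MITFKO libraries and 15 counts in wild type, at least 12.3-fold lower against the floor (edgeR adjusted p = 0.0154). It passed the filter on low counts only by the wild-type library, and so had to be lower in MITFKO, though it counts among the 6 members that fell. MAGEA10 did not pass the test: it read 5.53, 3.57 and 3.02 CPM in MITFKO and 5.09 in wild type (log2 -0.33 ± 0.32, edgeR adjusted p = 0.424). MAGEC1 had 1, 2 and 5 counts in MITFKO and 17 in wild type, and SSX1, a transcriptional corepressor, had 2, 6 and 3 counts in MITFKO and 20 in wild type. Neither was called, with edgeR adjusted p of 0.118 for MAGEC1 and 0.142 for SSX1. GAGE1, MAGEA11 and MAGEC2 had at most 1 count in each group.

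In the DKO clones, where TFE3 was edited as well, MAGEA4 and MAGEA6 rose in both clones relative to MITFKO, and MAGEA3 in clone 3. In clone 3, 4 of 10 tested members rose and 0 fell relative to MITFKO (40%), against 35.9% of 14605 genes called. Of all genes, 18.2% rose and 17.6% fell, so the share of members called was near that of genes at large. MAGEA4 read 340.2, 339.4 and 333.6 CPM in clone 3, against 239.1, 247.7 and 244.9 in MITFKO (log2 0.47 ± 0.051, edgeR adjusted p = 2.63e-07). MAGEA6 read 48.7, 53.0 and 52.4 CPM in clone 3, against 33.8, 37.5 and 37.0 in MITFKO (log2 0.51 ± 0.086, edgeR adjusted p = 6.68e-05). MAGEA3 read 71.0, 73.9 and 68.5 CPM in clone 3, against 53.1, 53.5 and 50 in MITFKO (log2 0.45 ± 0.083, edgeR adjusted p = 0.000197). The 2 groups did not overlap for any of the 3 genes, but how many of all genes did not overlap was not counted. MAGEA12 read 32.4, 36.2 and 31.1 CPM in clone 3, against 28.4, 29.7 and 26.6 in MITFKO (log2 0.24 ± 0.090, edgeR adjusted p = 0.0436). The MAGEA12 call was lost with no filter on low counts (adjusted p = 0.0728), with DESeq2 (adjusted p = 0.0541) and without any of 5 single libraries, MITFKO replicates 1, 2 and 3 and clone 3 replicates 1 and 2 (edgeR adjusted p from 0.0628 to 0.196).

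In clone 13, 3 of 10 tested members rose and 0 fell relative to MITFKO (30%), against 40.7% of 14605 genes called (20.5% of all genes rose and 20.2% fell). MAGEA4 read 295.8, 294.5 and 293.5 CPM in clone 13, against 239.1 to 247.7 in MITFKO (log2 0.27 ± 0.051, edgeR adjusted p = 0.000157). MAGEA6 read 48.5, 40.2 and 44.7 CPM in clone 13, against 33.8 to 37.5 in MITFKO (log2 0.30 ± 0.086, edgeR adjusted p = 0.007). Neither gene overlapped between the groups, though overlap was not counted over all genes. MAGEA12 read 33.6, 32.5 and 33.1 CPM in clone 13, against 26.6 to 29.7 in MITFKO (log2 0.23 ± 0.090, edgeR adjusted p = 0.0462), a call that was lost with no filter on low counts (adjusted p = 0.0698) and without MITFKO replicates 1, 2 or 3 or clone 13 replicates 1 or 3 (edgeR adjusted p from 0.0585 to 0.161). MAGEA3 read 65.3, 51.4 and 63.3 CPM in clone 13, against 50 to 53.5 in MITFKO, and did not pass (log2 0.20 ± 0.083, edgeR adjusted p = 0.0576). The low MAGEA3 value came from replicate 2, the library that stands apart from its replicates; without it the log2 difference was 0.31 ± 0.074 (edgeR adjusted p = 0.000646), and MAGEA3 was also called with no filter on low counts (adjusted p = 0.0397), in 1 model of all 16 libraries (0.0307) and with the replicate number as a block (0.0495). The melanocytic markers summed to 7015 to 8695 CPM in clone 13 and 6386 to 7157 in clone 3, against 5706 to 5900 in MITFKO. Of 8 tested, 5 rose and 2 fell in clone 13. In clone 3, 4 rose and 1 fell, where 18.2% of all genes rose and 17.6% fell. In each clone, 1 of the markers that rose was MITF, the gene already edited in all of these libraries. Its RNA was 894.2 ± 65.3 CPM in clone 13, 801.9 ± 29.8 in clone 3 and 512.0 ± 30.8 in MITFKO (SD, n = 3 each). The part of these markers in the results was not tested.

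**Figure D2:**
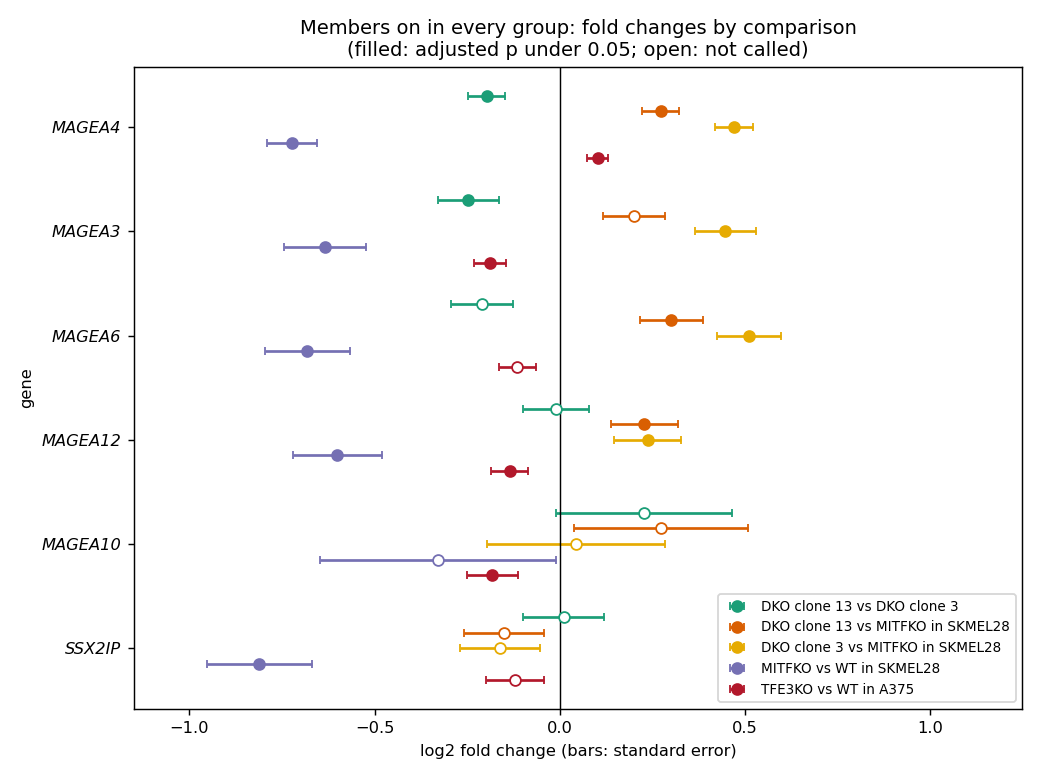
Log2 fold change (horizontal axis, bars are standard errors) of the 6 members on in every group, in the 4 SKMEL28 comparisons and in A375, with filled points where the edgeR adjusted p was under 0.05. The 4 most abundant MAGE-A genes lie left of 0 for MITFKO against wild type and right of 0 for each DKO clone against MITFKO, where MAGEA3 in clone 13 is open, and in A375 MAGEA4 alone lies right of 0, at 0.10.

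The MITFKO libraries stand on both sides of these comparisons, below wild type and below the clones, so the opposite signs share data and are not independent of each other. Set against clone 3 directly, clone 13 had lower MAGEA4 and MAGEA3: 2 of 10 tested members fell (20%), against 27.6% of 14605 genes called and 13.4% of genes that fell. MAGEA4 differed by -0.20 ± 0.051 on the log2 scale (edgeR adjusted p = 0.00529). MAGEA3 differed by -0.25 ± 0.082 (edgeR adjusted p = 0.029), a call lost without clone 3 replicate 1 (adjusted p = 0.086), without clone 3 replicate 2 (0.0962) and without clone 13 replicate 2 (0.166). MAGEA12 differed by -0.01 ± 0.090 between the clones, an edgeR adjusted p of 0.956.

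In A375, where MITF was not edited, TFE3KO cells had no GAGE1 counts and few of MAGEA1, while the abundant MAGE-A genes moved by less than 0.3 on the log2 scale. Of 10 members tested, 6 fell and 1 rose in TFE3KO relative to wild type (70%), against 43.3% of 14012 genes called (22% of all genes fell and 21.3% rose). GAGE1 and MAGEA1 passed the filter on low counts only by the wild-type libraries and so had to be lower in TFE3KO. Both count in the 70%, which is therefore not a like comparison with all genes. GAGE1 had 0, 0 and 0 counts in TFE3KO, against 119, 132 and 107 in wild type, at least 135-fold lower against the floor of 3 counts (edgeR adjusted p = 2.64e-18). MAGEA1 had 3, 1 and 0 counts in TFE3KO, against 98, 76 and 103 in wild type. That is 78.4-fold lower, with a 95% exact counting interval of 30.3 to 289.7, and a fitted log2 difference of -6.17 ± 0.51 (edgeR adjusted p = 4.64e-15). By the rule above GAGE1 was off and MAGEA1 low in TFE3KO cells, and both were on in wild type. Melanocytic markers summed to 795.3 to 871.2 CPM in TFE3KO and 528.2 to 552.7 in wild type. Most of this sum was SOX10, at 787.2 ± 37.45 CPM in TFE3KO and 502.4 ± 14.46 in wild type (SD, n = 3 each). Of 5 markers tested, 2 rose and 1 fell. The 1 that fell was MITF, at 18.0 ± 0.787 CPM in TFE3KO and 34.7 ± 4.01 in wild type (log2 -0.94 ± 0.088, edgeR adjusted p = 3.93e-13). The part of these markers in the results was not tested.

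MAGEA11 read 25.8, 27.4 and 23.6 CPM in TFE3KO, against 29.9, 32.7 and 30.6 in wild type (log2 -0.28 ± 0.081, edgeR adjusted p = 0.00439). MAGEA3 read 158.9, 158.1 and 140.9 CPM in TFE3KO, against 170.2, 168.6 and 184.7 in wild type (log2 -0.19 ± 0.043, edgeR adjusted p = 0.000354). The groups did not overlap for either gene, though overlap was not counted over all genes. MAGEA10 (log2 -0.18 ± 0.069, edgeR adjusted p = 0.0271) and MAGEA12 (-0.14 ± 0.050, edgeR adjusted p = 0.023) fell too. MAGEA4 was the only tested member that rose, with 788.5, 777.3 and 763 CPM in TFE3KO against 710, 729.9 and 732.5 in wild type (log2 0.10 ± 0.029, edgeR adjusted p = 0.00288). MAGEA6 (edgeR adjusted p = 0.057), MAGEC2 (0.0813) and SSX2IP (0.215) did not pass. In 1 model of all 16 libraries MAGEA4 (adjusted p = 0.0673), MAGEA10 (0.26), MAGEA11 (0.105) and MAGEA12 (0.122) were not called either, while GAGE1, MAGEA1 and MAGEA3 were. MAGEA10 was also lost with DESeq2 (0.054) and without TFE3KO replicate 1 or wild-type replicates 1 or 2 (edgeR adjusted p from 0.0588 to 0.157), and MAGEA12 without TFE3KO replicate 3 or wild-type replicate 3 (0.0874 and 0.132).

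**Figure D3:**
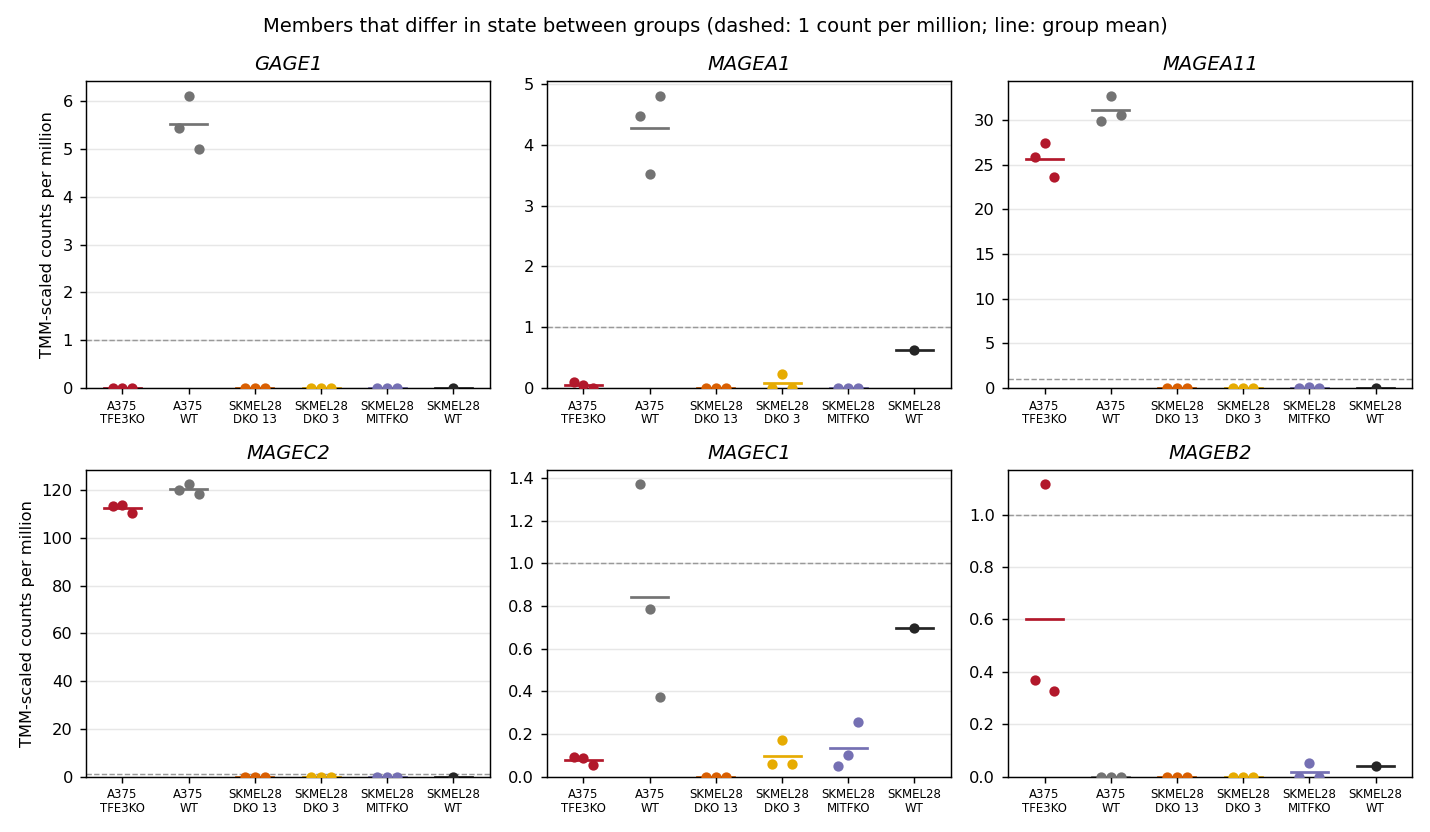
TMM-scaled CPM (vertical axis, from 0) in each of the 16 libraries of 6 members whose state differed between groups, with the group mean (line) and the level of 1 CPM (dashed). GAGE1 and MAGEA1 are near or at 0 in A375 TFE3KO and between 3.5 and 6.2 CPM in A375 wild type, MAGEA11 and MAGEC2 are present in both A375 groups and absent from SKMEL28 apart from 1 read, and MAGEB2 has counts in A375 TFE3KO and none in A375 wild type.

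The low members of A375 did not pass the filter and were tested only in alternative fits, with no filter in edgeR or with DESeq2. MAGEB2, another type I MAGE, had 12, 25 and 6 counts in TFE3KO and 0, 0 and 0 in wild type, at least 12.7-fold higher against the floor (unfiltered edgeR adjusted p = 5.31e-05, DESeq2 adjusted p = 0.000187). It reached 1 CPM in 1 of the 3 TFE3KO libraries and so remained low. MAGEC1 had 3, 2 and 1 counts in TFE3KO and 30, 17 and 8 in wild type, 10.4-fold lower with a 95% exact counting interval of 4.47 to 29.5 (unfiltered edgeR adjusted p = 0.00062). SSX1 had 0, 1 and 0 counts in TFE3KO and 10, 7 and 2 in wild type, a ratio of 21.5 with an interval of 3.42 to 893.5, and was on either side of the threshold by method (unfiltered edgeR adjusted p = 0.0525, DESeq2 adjusted p = 0.0332). CTAG2, a close relative of NY-ESO-1, had 7, 1 and 0 counts in TFE3KO and 8, 1 and 13 in wild type, with overlapping groups and no call (unfiltered edgeR adjusted p = 0.255).

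The members that were low in some group and are not described above had few counts. MAGEB18 had 3, 0 and 2 counts in DKO clone 13, 13, 0 and 3 in clone 3 and 2, 3 and 2 in MITFKO, and 0 in SKMEL28 wild type and in all A375 libraries. XAGE3 had 4, 8 and 0 counts in A375 TFE3KO and 6, 1 and 2 in A375 wild type, and 7 in SKMEL28 wild type. The pseudogene SSX6P had 8, 2 and 0 counts in clone 13, 0 in clone 3, 0, 2 and 2 in MITFKO and 10 in SKMEL28 wild type. MAGEB6 had 9 counts over the A375 TFE3KO libraries, MAGEB16 5 and MAGEA8 4 over the A375 wild-type libraries, and MAGEC3 4 over the clone 3 libraries. None of these reached 1 CPM in any library.

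The effect of editing TFE3 was set against itself in both lines as (the mean of DKO clones 3 and 13 minus MITFKO) minus (A375 TFE3KO minus A375 wild type). Of 15 members tested, 4 were higher and 0 lower (26.7%), against 34.7% of 16248 genes called and 16.5% of genes that were higher. GAGE1, MAGEA1, CTAG2 and MAGEC2 were at 0 in MITFKO, and MAGEB18 was at 0 in both A375 groups. None of these genes had a usable error in this fit (SE of 138.2 or more). They could not be called, though they count among the 15 tested. With DESeq2 7 members were called, 6 higher and 1 lower. The differences on the log2 scale were 0.52 ± 0.095 for MAGEA6 (edgeR adjusted p = 5.47e-05), 0.51 ± 0.093 for MAGEA3 (edgeR adjusted p = 5.25e-05), 0.37 ± 0.093 for MAGEA12 (edgeR adjusted p = 0.00212) and 0.27 ± 0.055 for MAGEA4 (edgeR adjusted p = 0.000245). By each line's own test, MAGEA3 had risen in SKMEL28 clone 3 and MAGEA12 in both clones, and both genes had fallen in A375. The MAGEA12 calls in the clones and in A375 were each lost in some alternative fits. MAGEA6 had risen in both clones and was not called in A375, and MAGEA4 had risen in both clones and by less in A375. MAGEA10 was not called (0.34 ± 0.19, edgeR adjusted p = 0.182), though without MITFKO replicate 1 it was 0.64 ± 0.18 (edgeR adjusted p = 0.00776). GAGE1, MAGEA11 and MAGEC2 were off in MITFKO and both clones, and MAGEA1 was at 0 in MITFKO and in all clone libraries except clone 3 replicate 2, with 4 counts. A fall of these genes below MITFKO could therefore not be measured in SKMEL28, and none was called higher in a clone (for MAGEA1 in clone 3, edgeR adjusted p = 0.25). MITF was edited in 1 line and not in the other, so line and MITF state cannot be told apart here.

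How much of a member's RNA can be told from its copies was measured as the share of 100-base windows of its GENCODE transcript (GRCh38) that occur in no other gene's transcript. Of 60 members with a transcript, 14 had no window of their own and 16 had under 5%. None of those 16 exceeded 4 counts in any library. Among these were GAGE12C, GAGE12D, GAGE12E and GAGE12G, CTAG1B (a copy of NY-ESO-1), SSX2 and SSX2B, SSX4 and SSX4B, XAGE1A and XAGE1B, and MAGEA2B at 0%, and MAGEA2 at 2.18%. How reads with several matches were counted is not given in the sources used here, so their zeros do not show that the genes were silent. For GAGE1, 88.7% of windows were its own, all at or after base 344 of a transcript of 3129 bases, and every other GAGE symbol was at 0 in all 16 libraries. MAGEA4, MAGEA1, MAGEA11, MAGEA12, MAGEC1, MAGEC2, MAGEB2 and SSX1 were at 100%. MAGEA3 and MAGEA6 were each at 63.9%, each sharing more windows with the other than with any further gene. Added together they read 104.5 ± 11.6 CPM in clone 13, 122.5 ± 3.86 in clone 3 and 88.3 ± 2.32 in MITFKO (SD, n = 3 each), against 138.9 in SKMEL28 wild type, and 251.4 ± 12.9 in A375 TFE3KO against 281.5 ± 16.05 in A375 wild type (SD, n = 3 each).

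**Figure D4:**
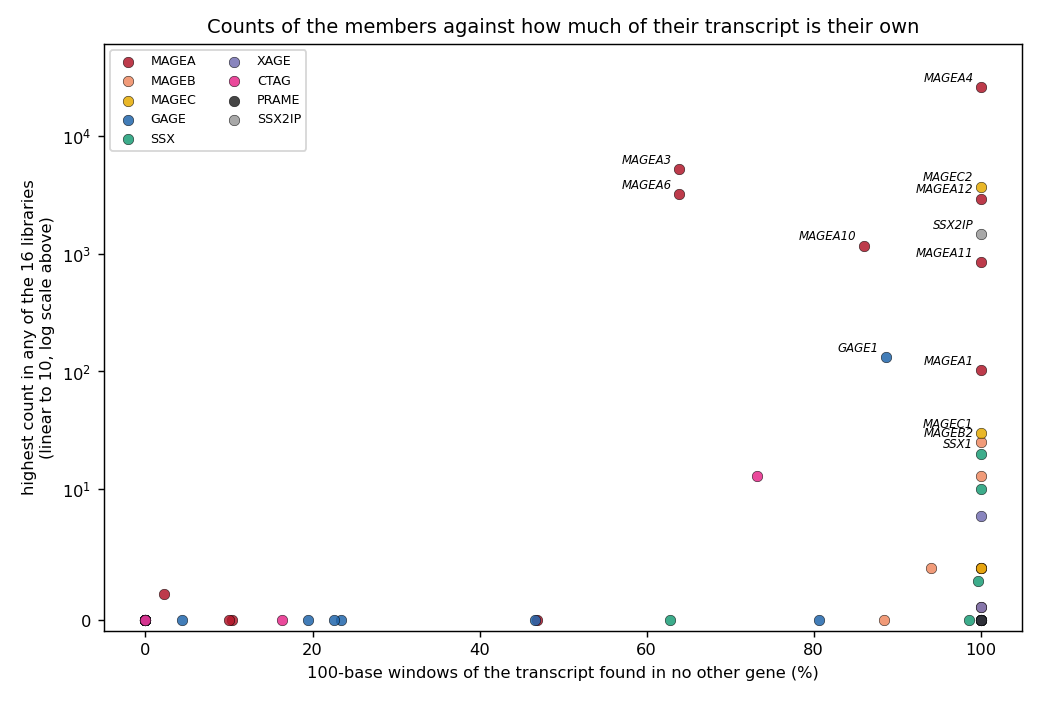
Highest count of each member in any of the 16 libraries (vertical axis, linear to 10 and logarithmic above) against the share of its 100-base transcript windows found in no other gene (horizontal axis, percent), coloured by family, for the 60 members with a transcript. Members under 5% sit at or near 0 counts, and MAGEA3 and MAGEA6, at 63.9%, are the least separable of the members with more than 100 counts.

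Some members at 0 were largely unlike any other gene: of 36 members with more than 50% of windows their own, 12 were at 0 in every library. PRAME, an antigen that represses retinoic acid receptor signalling and is often present in melanoma, was among them, with 0 counts in all 16 libraries and 100% of windows its own. Of the genes next to it on chromosome 22, ZNF280B, ZNF280A, GGTLC2, VPREB1 and IGLL5 were also at 0 in all 16 libraries, while BMS1P20, which lies among them, had 6501 counts and TOP3B and GNAZ, on either side, had 8457 and 2999, each summed over the libraries. PRAME is therefore listed at 0, and whether its transcripts were missed by the counting was not tested.

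GAGE1 lies on the short arm of the X chromosome, on the same side as TFE3 itself, and the edited gene's neighbours were read for that reason, after GAGE1 had been seen. In RefSeq order, 25 genes of the count files lie between TFE3 and GAGE1, of which 10 passed the filter in A375: 4 rose in TFE3KO and 0 fell. On the other side of TFE3, from HDAC6 to TFE3, 7 were tested, 1 rose and 3 fell (PQBP1, SLC35A2 and PIM2). Over all genes tested in A375, 21.3% rose and 22% fell. WDR45, an autophagy gene, read 46.7 ± 1.69 CPM in TFE3KO and 36.8 ± 1.64 in wild type (SD, n = 3 each), and PLP2 read 138.7 ± 6.10 in TFE3KO and 143.1 ± 3.30 in wild type. Past GAGE1, USP27X read 5.74 ± 0.271 CPM in TFE3KO and 4.56 ± 0.688 in wild type, and CLCN5, a chloride transporter gene, read 10.7 ± 1.26 in TFE3KO and 9.94 ± 1.51 in wild type (SD, n = 3 each). None of the 4 tested genes between GAGE1 and SHROOM4 was called, and SHROOM4 itself rose to 25.6 ± 0.886 CPM in TFE3KO, against 8.69 ± 0.772 in wild type (SD, n = 3 each). PAGE1, the first gene past GAGE1, read 0.451 ± 0.233 CPM in TFE3KO and 0.803 ± 0.226 in wild type (SD, n = 3 each), with an edgeR adjusted p of 0.217. The GAGE symbols between TFE3 and GAGE1 were at 0 in both A375 groups. The cause of the GAGE1 zero was not tested. MAGEA1 lies at the other end of the chromosome. Of its 2 tested neighbours, ZNF275 fell to 12.8 ± 1.58 CPM in TFE3KO, against 15.9 ± 1.42 in wild type (edgeR adjusted p = 0.027), and ZNF185 read 2.17 ± 0.764 CPM in TFE3KO and 1.27 ± 0.472 in wild type and was not called (edgeR adjusted p = 0.0807; SD, n = 3 each).

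**Figure D5:**
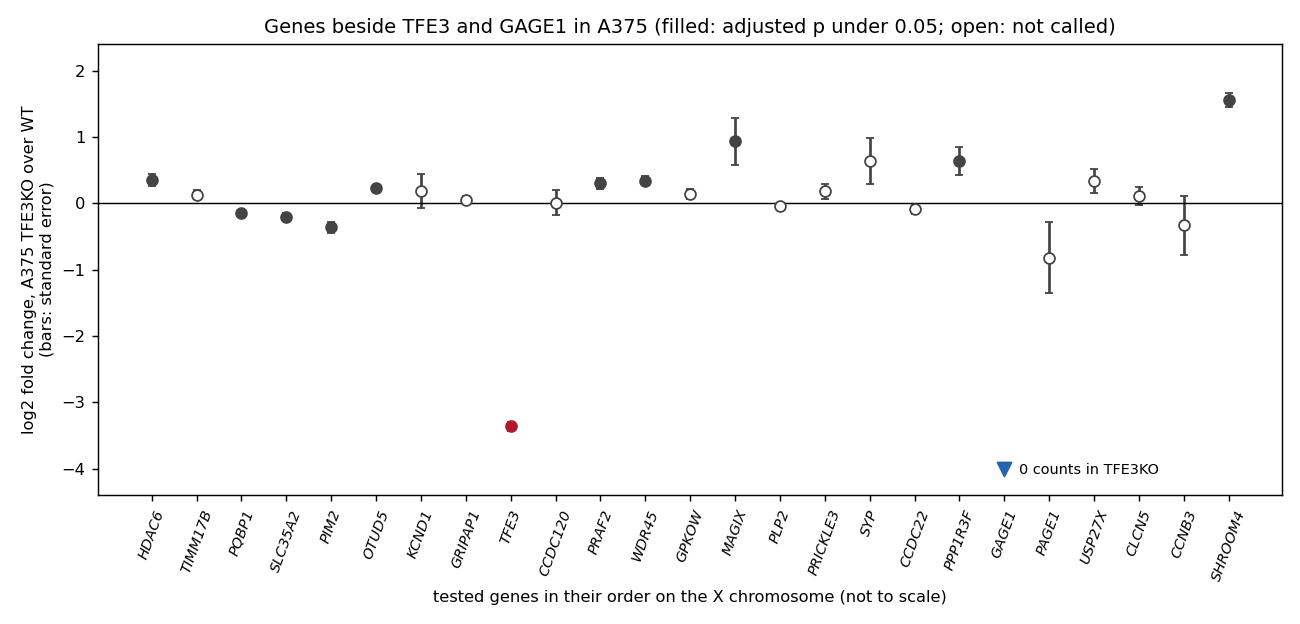
Log2 fold change of A375 TFE3KO over wild type (vertical axis, bars are standard errors) of the genes beside TFE3 and GAGE1 that passed the filter, in their order along the X chromosome (horizontal axis, not to scale), filled where the edgeR adjusted p was under 0.05. TFE3 lies at -3.36 and GAGE1, at 0 counts in TFE3KO, is drawn as a triangle at the lower edge, while the genes between them lie from -0.09 to 0.93.

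Other cancer-testis genes were read from lists written with earlier results of these data known. In A375 TFE3KO, of 48 other X-linked cancer-testis symbols 17 were tested, 5 rose and 1 fell, with a median log2 change of 0.04 against 0.00331 over all 14012 genes tested. The gene that fell was SPANXB1, a sperm nuclear protein, with 0.612 ± 0.254 CPM in TFE3KO and 38.9 ± 3.88 in wild type (SD, n = 3 each). Its log2 change was -6.035 ± 0.16 (edgeR adjusted p = 1.57e-34). The wild-type libraries alone were enough to carry SPANXB1 past the filter on low counts. How much of its transcript it shares with other SPANX genes was not measured. IL13RA2, a decoy receptor for interleukin-13, rose to 434.0 ± 8.23 CPM in TFE3KO, against 180.1 ± 2.41 in wild type (SD, n = 3 each; log2 1.27 ± 0.034, edgeR adjusted p = 5.04e-35). VCX3A and VCX, small basic proteins of the male germ line, rose by 1.83 ± 0.30 and 1.805 ± 0.37 on the log2 scale (edgeR adjusted p = 9.58e-07 and 5.44e-05). Of 48 autosomal cancer-testis symbols 14 were tested, 2 rose and 2 fell, with a median of 0.255. CABYR, a calcium-binding sperm tail protein, read 2.43 ± 0.131 CPM in TFE3KO and 7.78 ± 0.696 in wild type (SD, n = 3 each; log2 -1.67 ± 0.19, edgeR adjusted p = 2.97e-10). Among 472 other X-linked genes tested, 113 rose and 91 fell, and 43.2% were called, against 43.3% of all genes.

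In SKMEL28, the MITFKO comparison tested 13 of the X-linked symbols, of which 2 rose and 4 fell (median log2 -0.000761, against 0.0149 over all 14605 genes). VCX3A read 0.861 ± 0.267 CPM in MITFKO (SD, n = 3) and 6.23 in wild type (log2 -2.84 ± 0.45, edgeR adjusted p = 1.72e-05). PAGE1, of the family next to GAGE, read 113.6 ± 7.29 CPM in DKO clone 13, 101.9 ± 9.02 in clone 3 and 67.9 ± 1.21 in MITFKO (SD, n = 3 each), and 91.7 in wild type. It rose in clone 13 (log2 0.74 ± 0.070, edgeR adjusted p = 2.62e-08) and in clone 3 (0.59 ± 0.071, edgeR adjusted p = 1.19e-06), each relative to MITFKO. SAGE1 fell in clone 13 (-0.48 ± 0.089, edgeR adjusted p = 0.000137) and in clone 3 (-0.55 ± 0.089, edgeR adjusted p = 4.61e-05). Of the autosomal symbols 16 were tested: 0 rose and 5 fell in MITFKO against wild type (median log2 -1.14), 0 rose and 2 fell in clone 13 and 1 rose and 3 fell in clone 3, each relative to MITFKO. In MITFKO, 25.2% of all genes tested rose and 23.4% fell. Of all genes, 20.5% rose and 20.2% fell in clone 13, and 18.2% rose and 17.6% fell in clone 3. The autosomal germ-cell gene TEX15 read 0.110 ± 0.116 CPM in clone 13, 0.968 ± 0.339 in clone 3 and 2.35 ± 0.615 in MITFKO (SD, n = 3 each), and 6.56 in wild type.

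The type II MAGE genes are expressed in most tissues, unlike type I. Of 6 tested, 5 fell and 0 rose in MITFKO relative to wild type (median log2 -0.40), 4 rose and 0 fell in clone 13 (median 0.59) and 4 rose and 0 fell in clone 3 (median 0.37), each relative to MITFKO. Over all genes tested, 23.4% fell and 25.2% rose in MITFKO, 20.5% rose and 20.2% fell in clone 13 and 18.2% rose and 17.6% fell in clone 3. MAGED2, which acts in renal salt handling, read 459.1 ± 10.0 CPM in clone 13, 383.9 ± 8.75 in clone 3 and 299.4 ± 6.47 in MITFKO (SD, n = 3 each), and 419.8 in wild type. MAGED1, a partner of the neurotrophin receptor p75, read 347.2 ± 16.2 CPM in clone 13, 262.6 ± 11.4 in clone 3 and 179.8 ± 8.17 in MITFKO (SD, n = 3 each), and 224.7 in wild type. In A375, 3 of 6 rose and 1 fell in TFE3KO (median 0.35), where 21.3% of all genes rose and 22% fell: MAGED1 rose by 0.40 ± 0.045 and NDN, the growth suppressor necdin, fell by 0.37 on the log2 scale (edgeR adjusted p = 1.86e-10 and 0.000222).

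Of 32 genes of DNA methylation and germ-line silencing, 29 were tested in MITFKO against wild type, 5 rose and 14 fell (median log2 -0.23), against 25.2% and 23.4% of all genes. UHRF1, which brings DNMT1 to newly copied DNA, changed by -1.21 ± 0.27 (edgeR adjusted p = 0.00538), HELLS by -1.14 ± 0.27 (edgeR adjusted p = 0.0032), and TET3, an enzyme that oxidises methylcytosine, by 1.73 ± 0.12 (edgeR adjusted p = 1.03e-10). Of the same 29, 6 rose and 6 fell in clone 13 (median -0.09), against 20.5% and 20.2% of all genes, and 6 rose and 5 fell in clone 3 (median 0.03), against 18.2% and 17.6%, each relative to MITFKO. In A375 TFE3KO 30 were tested, 7 rose and 3 fell (median 0.04), against 21.3% and 22% of all genes, with DNMT3A at 0.46 ± 0.15 (edgeR adjusted p = 0.00956) and DNMT1 at -0.03 ± 0.030 (edgeR adjusted p = 0.501). TRIM28, the ubiquitin ligase that MAGE-A and MAGE-C proteins bind, read 573.1 ± 26.65 CPM in clone 13, 626.0 ± 12.1 in clone 3 and 444.2 ± 21.6 in MITFKO (SD, n = 3 each), and 668.5 in wild type. Of the 10 genes listed as partners of cancer-testis proteins, all tested, 2 rose and 5 fell in MITFKO against wild type, 3 rose and 1 fell in clone 13, 4 rose and 1 fell in clone 3, and 2 rose and 2 fell in A375 TFE3KO. The shares of all genes just given apply to these counts too. Methylation itself was not measured here.

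Markers of other cell types were read as well. The 5 leukocyte and endothelial markers summed to 9.725 to 11.5 CPM in A375 TFE3KO and 3.93 to 4.06 in A375 wild type, with PTPRC at 0 in both. The 4 keratinocyte markers summed to 21.6 to 24.8 CPM in A375 TFE3KO and 17.2 to 18.3 in A375 wild type, with DSG3 at 0 in both. Across the SKMEL28 groups the leukocyte and endothelial sum ran from 1.56 to 2.68 CPM, with CD3E or PTPRC at 0 in each group. The 3 fibroblast markers summed to 76.0 to 89.0 CPM in clone 13, 102 to 109 in clone 3, 51.9 to 61.9 in MITFKO and 45.1 in SKMEL28 wild type, and to 3.205 to 4.95 in A375 TFE3KO and 1.62 to 2.47 in A375 wild type, with none at 0. The part of these levels in the results was not tested.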

How the data were processed

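The authors deposited raw counts for each gene symbol and library, from 17320855 to 31269126 in all. The submitters' processing notes name STAR, featureCounts, DESeq2 and hg19 without versions; strand use, the annotation release and the counting of multiply matched reads are not given in the sources used. edgeR 4.0.16 (R 4.3.3; filterByExpr by group, TMM, robust quasi-likelihood F-test) was run on all genes: the SKMEL28 comparisons on 10 libraries, A375 on 6, and comparisons between lines on 16. DESeq2 1.42.0 was an alternative, with other scaling, no filter, a replicate block and leaving out each library. Ratios of summed counts carry 95% exact binomial (Clopper-Pearson) intervals. These, and the floor of 3 counts over a group, cover counting error only, since reads need not be independent molecules. Members and lists were chosen with earlier results of these data known, and the motif CCGGAA or CCGGAT after reading the promoters.

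Members on in any group or called in any comparison are named with values, as are up to 4 called genes of a list by size of change, from which the text takes examples; other genes were named after their values were seen. Protein identity between copies, a planned rule, was not used here and shared transcript windows took its place. Of the 69 symbols, 58 matched RefSeq (GRCh38.p14) by symbol and 3 by synonym. Sequences are on that build or in GENCODE version 29, not hg19, and no coordinates were converted. On simulated counts with known changes, the test recovered 87% of genes changed by 1 on the log2 scale and 99% of those changed by 2 for clone 3 against MITFKO (14122 genes, 11 false calls), 93% and 99% for A375 TFE3KO against wild type (13842 genes, 10 false calls), and 79% and 95% for A375 against SKMEL28 wild type (15414 genes, 6 false calls). Changes smaller than 1 on the log2 scale and changes of low-count genes were not simulated, so these rates do not cover them. Per the file headers, the counted input was number 38 for 14 libraries, number 3 for wild-type SKMEL28 and unnumbered for 1 library of A375 wild type.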

Additional observations from a re-analysis of the deposited data

Results flagged for a closer look

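The effect of editing TFE3 differed between the lines, by a test of the difference itself (edgeR, 1 model of all 16 libraries), for 4 members that both lines express. They were 4 of 15 members tested (26.7%), below the 34.7% of 16248 genes called, so the result is not particular to these families. The log2 difference, DKO clones minus MITFKO in SKMEL28 less TFE3KO minus wild type in A375, was 0.51 for MAGEA3, 0.52 for MAGEA6, 0.37 for MAGEA12 and 0.27 for MAGEA4. MAGEA3 and MAGEA6 share transcript sequence, so their values may not be separate observations. The 2 clones also differed from each other. Clone 13 less clone 3 was -0.25 for MAGEA3, -0.21 for MAGEA6, -0.01 for MAGEA12 and -0.20 for MAGEA4 on the log2 scale. The lines also differ in medium and in whether MITF was edited, which cannot be told apart from the line.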

How the results depend on the processing

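No called member changed direction under any alternative run. With RLE size factors in edgeR, all 36 calls of single members were kept. With no filter on low counts 34 were kept and 2 lost, with DESeq2 33 were kept and 2 lost (MAGEA1 in MITFKO had no adjusted p), in 1 model of all 16 libraries 18 were kept and 4 lost, and over the fits that each left out 1 library 186 were kept and 18 lost. The number of members called moved by more than 1.5 times in a few settings. For clone 13 against MITFKO it was 5 (4 higher, 1 lower) in 1 model of all 16 libraries, where MAGEA3 (adjusted p = 0.0307) and MAGEC1 (0.0396) were added, against 3. For the difference of TFE3 effects it was 7 (6 higher, 1 lower) with DESeq2, which added GAGE1, MAGEA1 and MAGEB2, against 4. edgeR gave no usable error for GAGE1 and MAGEA1 there, since MITFKO is at 0, nor for CTAG2, MAGEB18 and MAGEC2. The cause of these moves was not tested. Leaving out 1 library at a time gave 6 to 6 members for MITFKO against wild type, 3 to 4 for clone 3 and 2 to 4 for clone 13 against MITFKO, 1 to 3 for clone 13 against clone 3, 6 to 9 for A375 TFE3KO against wild type, 10 to 10 for A375 against SKMEL28 wild type and 4 to 5 for the difference of effects. For clone 13 against clone 3, the count of 1 came without clone 3 replicates 1 or 2 or clone 13 replicate 2. The lone SKMEL28 wild-type library was kept in each of these. With thresholds of 0.5 and 2 CPM in place of 1 CPM, 9 and 6 members were on in SKMEL28 wild type, and the other groups kept their numbers.

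Same-numbered replicates did not deviate together in every pair. Their correlations over genes ran from 0.0699 to 0.222 between the clones, highest for replicate 2, and were near 0 elsewhere. Clone libraries of unlike number gave -0.154 to 0.0794. Whether same-numbered clone libraries share more than a number was not tested. With the replicate number as a block, the members called were 4 for clone 3 and 4 for clone 13 against MITFKO (MAGEA3 added), 2 for clone 13 against clone 3, 7 for A375 TFE3KO and 4 for the difference of effects, and all 20 calls were kept. Depth limits the low members most: at these totals 3 counts over 3 libraries are about 0.05 CPM, and a member below that is not shown to be absent.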
